A study of Mus musculus with 24 samples.

Results

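The 6 genes described here encode immediate-early transcription factors of the EGR family (Egr1, Egr2, Egr3) and of the NR4A family of orphan nuclear receptors (Nr4a1, Nr4a2, Nr4a3). They are 6 of the 23235 genes in the deposited expression table and were picked by symbol, with earlier results of these data known. The study measured RNA by RNA-seq in T11 cells, a claudin-low mammary tumour line from the mouse, here carrying a luciferase gene. Cells were kept for 3 days in RPMI with 1% FBS and then received FPP-1746-Omomyc, FPP-1746, Omomyc or PBS, the peptides at 5 µM, for 3 h or 6 h. Omomyc is a mutant of the MYC dimerisation domain, FPP-1746 is a peptide that enters cells, and FPP-1746-Omomyc joins both and is called the fusion below. PBS is the buffer control. Each of the 8 groups had 3 replicates. The 3 samples titled as the fusion at 6 h carry a treatment tag of 3 h, and the titles and the name of the column were followed.

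Each group is present as 1 value per gene, the authors' average of the 3 replicates in FPKM (fragments scaled by transcript length and library size). The spread between replicates is therefore not seen, no difference has a replicate check, and no test or p-value is given. Ratios are log2 ratios of FPKM + 1, which makes differences of weakly expressed genes look smaller. Differences are described by a size rule, at least 2-fold higher or lower in FPKM + 1, over the 10262 genes whose mean was 1 FPKM or more, and the share of all those genes past the same rule is given as the background. At each time, every treatment was compared with the same PBS column, so these comparisons share their control. Of 9 epithelial marker genes none reached a mean of 1 FPKM and 4 were at 0 in every column, their sum lying between 0.0469 and 0.197 FPKM. All 8 mesenchymal markers reached it, with a sum between 3596 and 5526 FPKM, most of it from the vimentin gene Vim. Markers of leukocytes summed to at most 0.0617 FPKM and those of endothelium to at most 0.177 FPKM.

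Immediate-early genes are transcribed within minutes of a stimulus without new protein synthesis. EGR proteins are zinc finger factors that bind GC-rich sites, and the corepressors NAB1 and NAB2 bind EGR proteins and restrain them, the NAB2 gene being itself an EGR target. NR4A proteins bind DNA as monomers, or as dimers with each other or with RXR, and their activity depends largely on how much protein is made, since they lack an open ligand pocket. Transcription of both families is known to respond to ERK signalling, through serum response factor (SRF) and its ETS-domain partners at CArG boxes, and to cyclic AMP and calcium, through CREB at cyclic AMP response elements (CRE) and through MEF2 factors. Such genes are typically transient, with unstable mRNAs.

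The sequences upstream of the start sites are shown first because the members are known for clustered signal-response elements there. Each is the 250 bases before the RefSeq start, 5′ to 3′ on the gene's strand, build GRCm38.p6, with motif matches in capitals. Windows are printed for 4 of the 6 members, Egr2, Nr4a1, Nr4a2 and Nr4a3. None is printed for Egr1 or Egr3, so the motifs of these 2 members are not described. The motif counts below therefore do not stand for all 6 members. They lie at chr10:67537619-67537868 on the plus strand for Egr2 and at chr15:101266596-101266845 on the plus strand for Nr4a1. They lie at chr2:57124004-57124253 on the minus strand for Nr4a2 and at chr4:48045055-48045304 on the plus strand for Nr4a3. Egr2 has 5 windows, of which the one that begins at an annotated GENCODE start is shown. The Nr4a3 start lies 152 bases from the nearest GENCODE protein-coding start. For all 4 members the row of the expression table spans fewer bases than the RefSeq gene, for Nr4a3 32105 against 41370. Whether the printed start is that of the measured row was not checked.
Egr2: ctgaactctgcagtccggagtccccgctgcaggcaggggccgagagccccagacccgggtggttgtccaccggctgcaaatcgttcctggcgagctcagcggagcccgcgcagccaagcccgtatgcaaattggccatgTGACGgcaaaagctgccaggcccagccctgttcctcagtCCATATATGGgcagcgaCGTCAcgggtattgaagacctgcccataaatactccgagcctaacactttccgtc
Nr4a1: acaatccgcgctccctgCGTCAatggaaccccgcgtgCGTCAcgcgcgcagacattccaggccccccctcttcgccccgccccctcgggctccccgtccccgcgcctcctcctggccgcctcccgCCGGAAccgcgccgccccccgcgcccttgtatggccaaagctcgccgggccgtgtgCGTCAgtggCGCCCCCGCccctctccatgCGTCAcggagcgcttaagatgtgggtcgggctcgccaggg
Nr4a2: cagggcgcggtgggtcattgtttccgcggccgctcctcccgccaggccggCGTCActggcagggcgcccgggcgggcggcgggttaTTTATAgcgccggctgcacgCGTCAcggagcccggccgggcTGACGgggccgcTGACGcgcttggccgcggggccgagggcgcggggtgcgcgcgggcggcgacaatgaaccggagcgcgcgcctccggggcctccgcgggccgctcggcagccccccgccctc
Nr4a3: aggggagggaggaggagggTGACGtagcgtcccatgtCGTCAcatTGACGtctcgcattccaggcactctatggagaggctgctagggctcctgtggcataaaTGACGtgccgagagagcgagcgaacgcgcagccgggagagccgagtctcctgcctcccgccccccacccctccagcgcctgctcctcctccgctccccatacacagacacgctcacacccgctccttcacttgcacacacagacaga

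Motifs were searched by letter on both strands of windows of 300 bases, 250 before and 50 after each start, in 32851 windows of 27025 genes. The CRE core TGACG, which is also contained in the full element TGACGTCA, was present 4 times in each of Nr4a1, Nr4a2 and Nr4a3 and 2 times in Egr2. Of all windows 20.8% held at least 1 match of it, 5.01% at least 2 and 0.231% at least 4. Counted back from the start site, the matches in Nr4a1 began at positions -233, -213, -69 and -40, and those in Nr4a3 at -231, -213, -205 and -147. In Nr4a2 they began at -200, -144, -123 and -111. None of the 4 windows held the full element, present in 1.79% of all windows.

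The window of Egr2 held a CArG box (CC, 6 letters A or T, GG), the binding site of SRF, from -72 to -63, between its CRE cores at -111 and -55. A CArG box was found in 1.63% of all windows and in none of the Nr4a windows. The window of Nr4a1 held an EGR site, GCGGGGGCG on the opposite strand, from -60 to -52, between 2 of its CRE cores. EGR sites (GCGTGGGCG or GCGGGGGCG) were found in 3.47% of all windows. The same Nr4a1 window had the ETS core CCGGAA from -125 to -120 (14.9% of windows), and that of Nr4a2 the letters TATAAA on the opposite strand from -164 to -159 (13.6%). The NR4A monomer site AAAGGTCA (1.51% of windows), the AP-1 site TGAGTCA (5.20%) and the E-box CACGTG (7.15%), which MYC with MAX can bind, had no match in these 4 windows. GC content of the printed stretches was 61.6% for Egr2, 74.4% for Nr4a1, 80% for Nr4a2 and 63.6% for Nr4a3, against a median of 52.4% over all windows. A match is a description of letters, and binding was not measured.

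**Figure D1:**
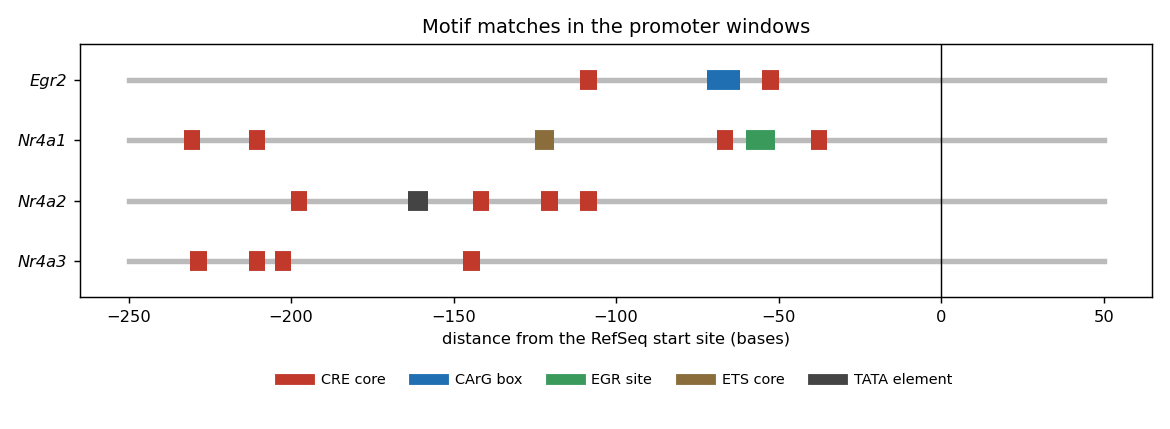
Positions of the motif matches in the promoter windows of 4 members, in bases from the RefSeq start site at 0, each colour 1 motif. The 3 Nr4a windows carry 4 CRE cores each and that of Egr2 carries 2, with a CArG box between them.

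With the fusion, all 3 Egr genes were far above every other column at both times. Egr1, which encodes a zinc finger activator of growth and stress genes, lies on chromosome 18 from 35020861 to 35024610 (mm9, as all positions of the table). At 3 h Egr1 stood at 2.24 FPKM in PBS cells, 2.59 in Omomyc cells, 2.39 in FPP-1746 cells and 65.1 in fusion cells. At 6 h Egr1 was at 1.97, 2.37, 1.45 and 22.6 FPKM in the same order. The fusion columns stood 29.0-fold and 11.5-fold above PBS in plain FPKM, or 4.35 and 2.99 on the log2 scale of FPKM + 1. The 6 columns without the fusion kept between 1.45 and 2.59 FPKM.

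Egr2 encodes the family member known from Schwann cell myelination and hindbrain patterning, and lies on chromosome 10 from 67000617 to 67004936. At 3 h Egr2 stood at 0.709 FPKM in PBS cells, 1.02 in Omomyc cells, 1.10 in FPP-1746 cells and 15.1 in fusion cells. At 6 h it was at 0.162, 0.185, 0.161 and 3.00 FPKM. Its log2 ratios of the fusion over PBS were 3.23 and 1.79, and in plain FPKM the ratio was 21.3-fold and 18.6-fold. With 5 in place of 1 added to each FPKM, the 6 h ratio was 0.63 and no longer passed 2-fold. Egr2 also differed between the times in columns without the fusion: its 3 h range was 0.709 to 1.10 FPKM and its 6 h range 0.161 to 0.185 FPKM.

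Egr3, whose product acts in muscle spindles and in lymphocyte tolerance, lies on chromosome 14 from 70477252 to 70479964. At 3 h Egr3 stood at 1.71 FPKM in PBS cells, 1.95 in Omomyc cells, 1.71 in FPP-1746 cells and 24.3 in fusion cells. At 6 h it was at 0.814, 1.81, 0.910 and 10.4 FPKM, so that Omomyc alone stood above PBS and FPP-1746 while the fusion was highest. The log2 ratios of the fusion over PBS were 3.22 and 2.65. Summed over the 3 Egr genes, PBS held 4.67 FPKM and the fusion 105 at 3 h, and 2.94 and 36.0 FPKM at 6 h.

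The Nr4a genes were also highest in both fusion columns. Nr4a1 encodes NUR77, known from T cell receptor signalling and stress responses, and lies on chromosome 15 from 101097277 to 101105225. At 3 h Nr4a1 stood at 8.11 FPKM in PBS cells, 11.6 in Omomyc cells, 9.67 in FPP-1746 cells and 314 in fusion cells. At 6 h it was at 6.25, 10.8, 6.68 and 70.7 FPKM. The log2 ratios of the fusion over PBS were 5.11 and 3.31. With the fusion at 3 h, Nr4a1 was above 97.2% of the tested genes, from 34.5% in PBS.

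Nr4a2 encodes NURR1, needed for midbrain dopamine neurons, and lies on chromosome 2 from 56959637 to 56976414. At 3 h Nr4a2 stood at 3.12 FPKM in PBS cells, 3.32 in Omomyc cells, 3.23 in FPP-1746 cells and 111 in fusion cells. At 6 h it was at 4.01, 7.26, 3.70 and 44.9 FPKM. The log2 ratios of the fusion over PBS were 4.77 and 3.20. The 3 columns without the fusion at 3 h lay between 3.12 and 3.32 FPKM, and at 6 h Omomyc stood apart from the other 2.

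Nr4a3 encodes NOR1 and lies on chromosome 4 from 48064120 to 48096224. It was nearly silent without the fusion: at 3 h it stood at 0.0549 FPKM in PBS cells, 0.122 in Omomyc cells and 0.0770 in FPP-1746 cells, against 9.82 FPKM with the fusion. At 6 h it was listed at 0 in PBS, at 0.136 with Omomyc and at 0.0542 with FPP-1746, against 6.12 FPKM with the fusion. The log2 ratios over PBS were 3.36 and 2.83. In plain FPKM the ratio at 3 h was 179-fold over a PBS value that a rough estimate puts at 13.2 fragments. Summed over the 3 Nr4a genes, the 3 h level was 11.3 FPKM for PBS and 435 for the fusion, and the 6 h level 10.3 and 122 FPKM.

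**Figure D2:**
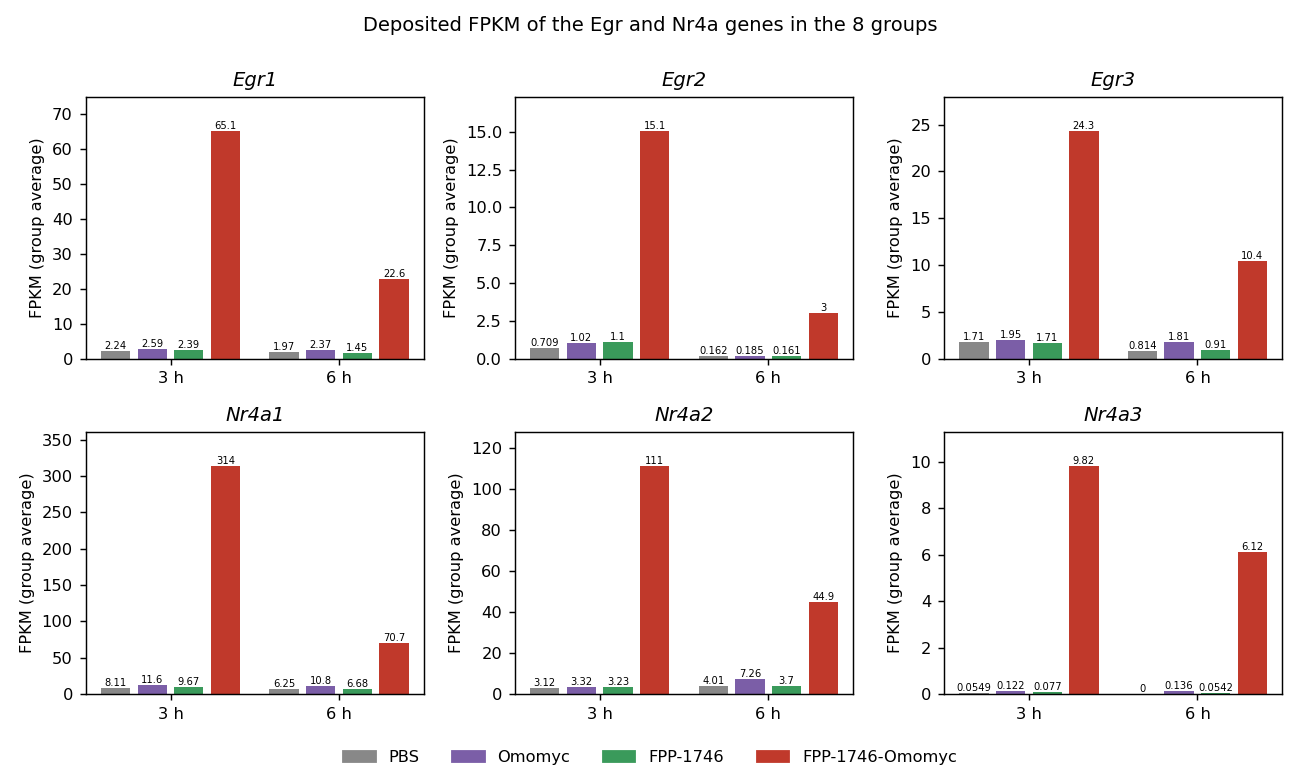
Deposited FPKM of each gene (bars, group averages of 3 replicates with no error available) in the 4 treatments at 3 h and 6 h, each panel with its own axis from 0. In every panel the fusion bar is the highest at both times, and its 6 h bar is below its 3 h bar.

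Thus 6 of 6 members were at least 2-fold higher with the fusion than with PBS at 3 h, where 6.13% of all tested genes were, and 6 of 6 at 6 h, where 7.13% were. The members had been chosen with these contrasts known, so the counts describe the choice. The median log2 ratio of the 6 was 3.85 at 3 h and 2.91 at 6 h, and that of all tested genes was 0.0034 and -0.026. At 3 h the Nr4a genes had a median of 4.77 and the Egr genes of 3.23. Among 10122 genes without records of small RNAs, Nr4a1 held place 4 from the top at 3 h, Nr4a2 place 5 and Egr1 place 11. Nr4a3, Egr2 and Egr3 held places 31, 36 and 37. At 6 h the places ran from 12 for Nr4a1 to 36 for Egr3, with Egr2 at 151.

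FPKM is scaled by transcript length, so levels can be set side by side. The order Nr4a1, Nr4a2, Egr1, Egr3, Egr2, Nr4a3, from high to low, was found in 7 of the 8 columns. In the fusion at 6 h Nr4a3 stood above Egr2. Without replicate values it cannot be said which neighbours in that order differ beyond their spread. Nr4a1 was 148-fold above Nr4a3 in PBS at 3 h and 31.9-fold above it with the fusion. Averaged over the 6 columns without the fusion, Egr2 (0.556 FPKM) and Nr4a3 (0.0741 FPKM) were under 1 FPKM, so they entered the tested genes through the fusion columns, where they are high. The same holds for Fos and Sox9, named below, which were under 1 FPKM in each column without the fusion.

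With either part alone no member passed the 2-fold rule, but very few of all tested genes did, so these counts say little about the members. The 1 added to each FPKM also makes the rule hard to meet for low members such as Nr4a3 and Egr2. In plain FPKM, Omomyc stood 2.23-fold above PBS for Nr4a3 at 3 h and 2.22-fold for Egr3 at 6 h, both at low levels. The other plain ratios of either part over a PBS value above 0 were under 2-fold. With FPP-1746, 0 of 6 members were 2-fold higher at 3 h (0.322% of all tested genes) and 0 of 6 at 6 h (0.224%), and the log2 ratios lay between -0.28, for Egr1 at 6 h, and 0.30, for Egr2 at 3 h. With Omomyc, 0 of 6 were 2-fold higher at 3 h (0.283%) and 0 of 6 at 6 h (0.312%). All 6 members were nevertheless above PBS with Omomyc at both times, where 54.9% of all tested genes were at 3 h and 50.7% at 6 h. With the mean of both PBS columns as the reference, Nr4a2 at 3 h (-0.08) and Egr2 at 6 h (-0.28) were below PBS.

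The Omomyc values at 6 h reached a smaller fold. By a 1.5-fold rule, 3 of 6 members were higher, against 0.477% of all tested genes, and against 0.178% (18 genes) when records of small RNAs are left out. With 0.1 in place of 1 added to each FPKM, 2 of 6 were 2-fold higher, Nr4a3 (1.24) and Egr3 (1.06). Those past 1.5-fold were Nr4a2 (log2 ratio 0.72), Nr4a1 (0.71) and Egr3 (0.63), at places 9, 10 and 14 of 10122. At 3 h, Nr4a1 had 0.47 with Omomyc (place 27), Egr2 0.24, and the other 4 members between 0.07 and 0.15. Against the mean of both PBS columns, Nr4a2 at 6 h was at 0.85, Nr4a1 at 0.53 and Egr3 at 0.31, so only the first stayed past 1.5-fold. With FPP-1746 at 6 h the same 3 genes had -0.09, 0.08 and 0.07. Whether these smaller differences exceed the spread between replicates was not tested.

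**Figure D3:**
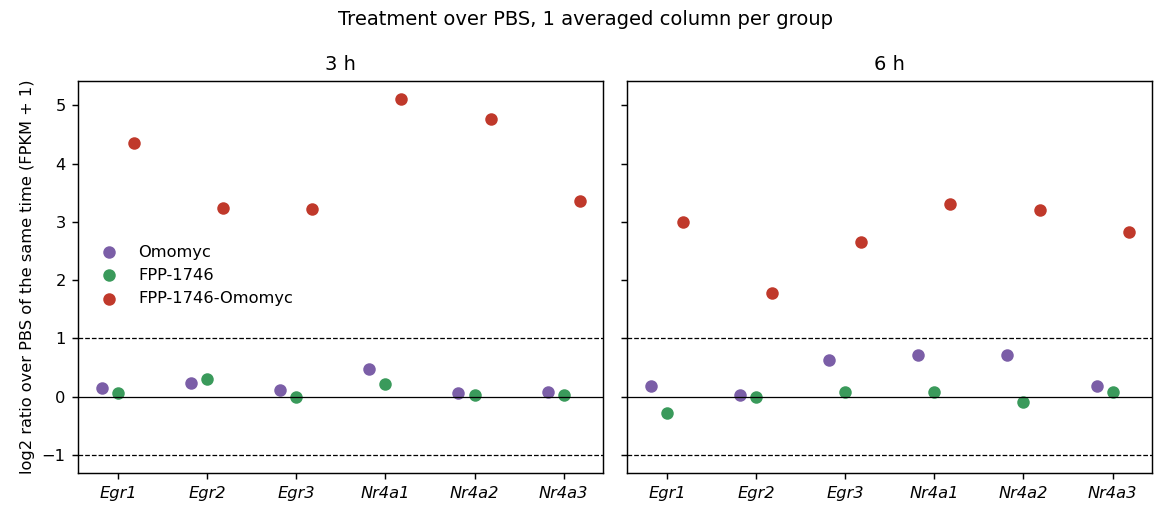
Log2 ratio of FPKM + 1 over the PBS column of the same time for each gene and treatment, 1 point per averaged column, with dashed lines at 2-fold. Fusion points lie between 1.79 and 5.11, while all points of either part alone lie within the dashed lines, the highest being Omomyc at 6 h for Nr4a2 (0.72).

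Set against the parts themselves, the fusion was higher in all 6 members at both times. Against FPP-1746 6 of 6 were 2-fold higher at 3 h (5.86% of all tested genes) and at 6 h (6.94%), with log2 ratios of 2.94 to 4.88 and 1.79 to 3.29. Against Omomyc 6 of 6 were 2-fold higher at 3 h (5.56%) and at 6 h (6.59%), with log2 ratios of 3.00 to 4.70 and 1.76 to 2.81. The smallest of all these values were those of Egr2 at 6 h. The members had been chosen with results of these data known, and Egr2 and Nr4a3 were tested only through the fusion columns. These counts therefore describe the choice. For Nr4a1 at 6 h the ratio was 2.60 against Omomyc and 3.22 against FPP-1746, and for Egr3 it was 2.02 and 2.58. The labels give 5 µM for each peptide, and the uptake of each was not measured here.

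Between 3 h and 6 h the members differed in how far their level with the fusion was lower. At least 2-fold lower at 6 h were 5 of 6, where 4.92% of all tested genes were. Nr4a1 had a log2 ratio of -2.13, Egr2 of -2.01, Egr1 of -1.49, Nr4a2 of -1.29 and Egr3 of -1.15, while Nr4a3, at -0.60, did not pass. With 5 in place of 1 added, Egr3 was at -0.93 and did not pass either. As a share of the 3 h level, Egr2 was at 19.9% at 6 h, Nr4a1 at 22.5%, Egr1 at 34.7%, Nr4a2 at 40.4%, Egr3 at 42.8% and Nr4a3 at 62.3%. The 598 genes that were 2-fold higher with the fusion at 3 h, without small RNAs, had a median share of 69.0%, with quartiles at 50.4% and 93.8%. Over 13 tested AP-1, Ier and Csrnp genes, other immediate-early genes, the median was 46.1%, from 16.2% for Fos to 124% for Fosl1, and over the 6 members it was 37.6%.

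In PBS 0 of 6 members were 2-fold lower at 6 h than at 3 h (0.487% of all tested genes) and 0 of 6 higher (0.38%). The largest log2 ratios there were -0.58 for Egr3, -0.56 for Egr2 and -0.33 for Nr4a1. In plain FPKM Egr2 at 6 h was at 0.228 of its 3 h value for PBS, at 0.199 for the fusion, at 0.182 for Omomyc and at 0.146 for FPP-1746. The level of Egr2 was thus lower at 6 h by a similar factor with and without the fusion, which the +1 in the ratio conceals at low FPKM. Its 6 h values without the fusion rest on roughly 20.1 to 24.3 fragments. Nr4a2 went the other way in all 3 columns without the fusion, with log2 ratios of 0.28 in PBS, 0.93 with Omomyc and 0.15 with FPP-1746, while it was lower at 6 h with the fusion.

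**Figure D4:**
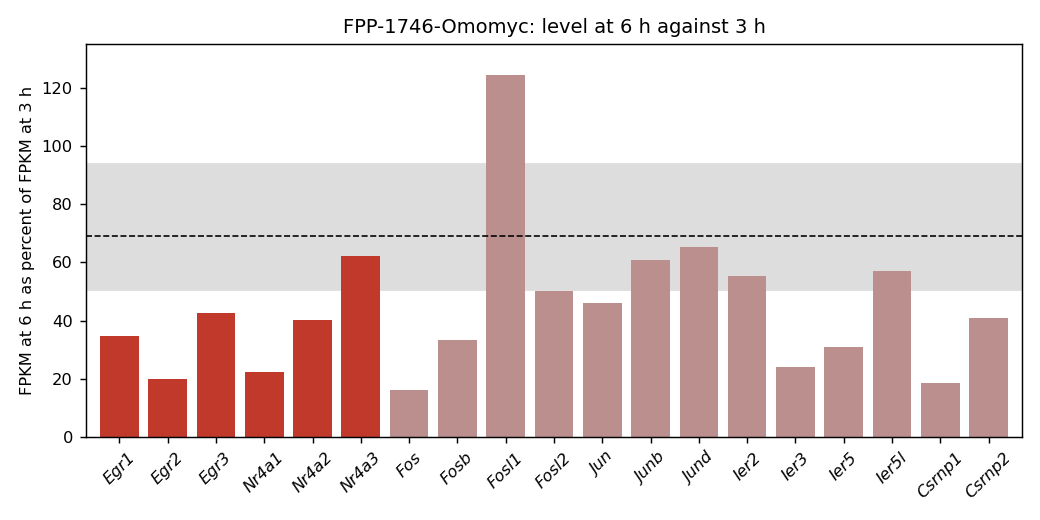
FPKM at 6 h as a percent of FPKM at 3 h with the fusion, for the 6 members (dark bars) and 13 tested AP-1, Ier and Csrnp genes (pale bars), with the median (dashed line, 69.0%) and quartiles (grey band) of the 598 genes 2-fold higher at 3 h. All members but Nr4a3 (62.3%) lie below the grey band.

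Of the regulators that bind EGR proteins, Nab2 was 2-fold higher with the fusion at both times, like the members, and Nab1 at neither. With the fusion Nab1 was higher at 6 h than at 3 h, where all members were lower. Nab2 at 3 h stood at 33.3 FPKM in PBS cells, 39.8 in Omomyc cells, 41.3 in FPP-1746 cells and 129 in fusion cells, and at 18.5, 20.9, 19.7 and 44.2 FPKM at 6 h. These are log2 ratios of 1.92 and 1.21 for the fusion over PBS. Nab1 was at 14.9 FPKM in PBS and 15.2 with the fusion at 3 h, and at 11.5 and 21.9 FPKM at 6 h, log2 ratios of 0.03 and 0.86 that did not reach 2-fold. The fourth EGR gene, Egr4, was listed at 0 in all 8 columns, and Wt1, a zinc finger factor that binds similar sites, was near 0. For the NR4A family the dimer partners Rxra and Rxrb had log2 ratios between -0.32 and 0.06, and Rxrg was listed at 0 throughout.

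Genes reported elsewhere as EGR targets were mixed. Of 13 tested, 5 were 2-fold higher and 1 lower with the fusion at 3 h, and 4 higher and 1 lower at 6 h, with medians of 0.63 and 0.42. Of all tested genes 4.42% were lower at 3 h and 3.34% at 6 h. Gadd45a, a growth arrest and DNA damage gene, had log2 ratios of 3.28 and 2.89, and the angiogenic factor gene Vegfa 2.15 and 1.98. Pdgfb, which encodes a platelet-derived growth factor chain, was the lower gene at 3 h, with 7.63 FPKM in fusion cells against 21.3 in PBS. At 6 h Pdgfb was at -0.96 and did not pass, and the lower gene was Thbs1 (-1.11). Of 9 genes reported as NR4A targets, many of them neuronal or steroidogenic, only Spp1, the osteopontin gene, was tested, with log2 ratios of 1.26 and 0.73. Here too the members and the list were set with results of these data known.

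The mRNAs of kinases and factors known to drive the members differed from list to list, and mRNA levels say nothing of their activity. As background for these and the later lists, 6.13% of all tested genes were 2-fold higher with the fusion at 3 h and 4.42% lower. At 6 h these shares were 7.13% and 3.34%. In lists this short, 1 gene past the rule says little about the list. Of 11 tested ERK cascade kinase genes, 0 were 2-fold higher or lower with the fusion at either time, with medians of -0.0053 and 0.040. The largest were Nras at 3 h (-0.99) and Mapk3, which encodes ERK1, at 6 h (-0.99). Of 6 genes of SRF and its partners, 1 was lower at 3 h, Srf itself (-1.03), and 1 was higher at 6 h, Elk4 (1.12), with list medians of -0.25 and 0.34. Of 8 CREB family and coactivator genes, 2 were higher at 3 h and 1 at 6 h, with medians of 0.40 and 0.21. These were Crem (1.73 and 1.77), which encodes activators and the repressor ICER, and the coactivator gene Crebbp (1.24 at 3 h). Of 6 tested MEF2 and class II deacetylase genes, Mef2a was higher at 3 h (1.15) and none passed at 6 h. The medians were 0.69 and 0.68, with Hdac4 (0.95), Hdac5 (0.72) and Mef2a (0.72) above PBS at 6 h and Hdac7 (-0.96) below it.

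Genes known to respond to cyclic AMP through CREB had the highest median at 3 h of the lists set beside the members. Of 9 tested, 8 were 2-fold higher at 3 h (6.13% of all tested genes) and 8 at 6 h (7.13%). The medians were 3.31 and 1.77. This list was set with results of these data known, so its place among the lists describes the choice. It shares Crem with the CREB family list. Rgs2, a regulator of G-protein signalling, had 4.46 and 3.72, the clock gene Per1 4.18 and 2.28, the phosphatase gene Dusp1 3.92 and 2.24, and the growth factor gene Areg 3.49 and 2.37. With Omomyc at 6 h, 0 of these 9 were 2-fold higher (0.312% of all tested genes) and 8 of 9 were above PBS (50.7%). The median was 0.38, against 0.41 for the 6 members and 0.0014 for all tested genes. With Omomyc at 3 h 7 of the 9 were above PBS (54.9% of all tested genes), and the median was 0.44, against 0.13 for the members. With FPP-1746, 6 of the 9 were above PBS at 3 h (52.8% of all tested genes) and 7 at 6 h (52.3%). The medians were 0.15 and 0.16, against 0.049 and 0.037 for the members. With so few genes, these counts above PBS say little.

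Output genes of the ERK pathway were mixed. Of 9 tested, 5 were 2-fold higher and 1 lower at 3 h, and 3 higher and 1 lower at 6 h, with medians of 1.08 and 0.84. The feedback inhibitor genes Spry2 (2.71 at 3 h) and Spry4 (2.36) and the phosphatase gene Dusp4 (2.70) were higher, and the cyclin D1 gene Ccnd1 was lower (-2.23). Other immediate-early genes were mostly higher with the fusion. Of 7 AP-1 genes 6 were 2-fold higher at 3 h and 5 at 6 h (medians 2.00 and 1.85), and of 6 tested Ier and Csrnp genes 5 and 4 were (2.15 and 1.43). Of 14 further genes, such as Atf3 (6.41 at 3 h) and Zfp36 (3.47), 10 were higher at 3 h, and at 6 h 10 were higher and 1 lower (medians 2.24 and 1.70). With Omomyc at 6 h, 1 of the 7 AP-1 genes was past 2-fold, Fosb, with 3.92 FPKM against 1.44 in PBS.

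Among 15 tested nuclear receptor genes outside the NR4A family, 2 were 2-fold higher with the fusion at 3 h and 4 at 6 h, and none lower, with medians of 0.29 and 0.45. The clock repressor gene Nr1d1 had 3.26 at 3 h, and its relative Nr1d2 had 1.48 at 6 h. Rarg, for a retinoic acid receptor, had 1.43, and Vdr, for the vitamin D receptor, had 1.42 at 6 h. With 1 added to each FPKM, all 3 Nr4a genes had a higher ratio than each of these 15 at both times. At 3 h Nr4a3 (3.36) was only just above Nr1d1. With 5 added, Nr4a3 was at 1.55 at 3 h and 1.15 at 6 h, and Nr1d1 was then above it at both times. Nr1d1 stood at 11.7 FPKM in PBS and 120 with the fusion at 3 h, and at 11.7 and 33.8 FPKM at 6 h. For Nr4a3 the order thus depends on the amount added. The Nr4a genes had been chosen with these contrasts known.

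**Figure D5:**
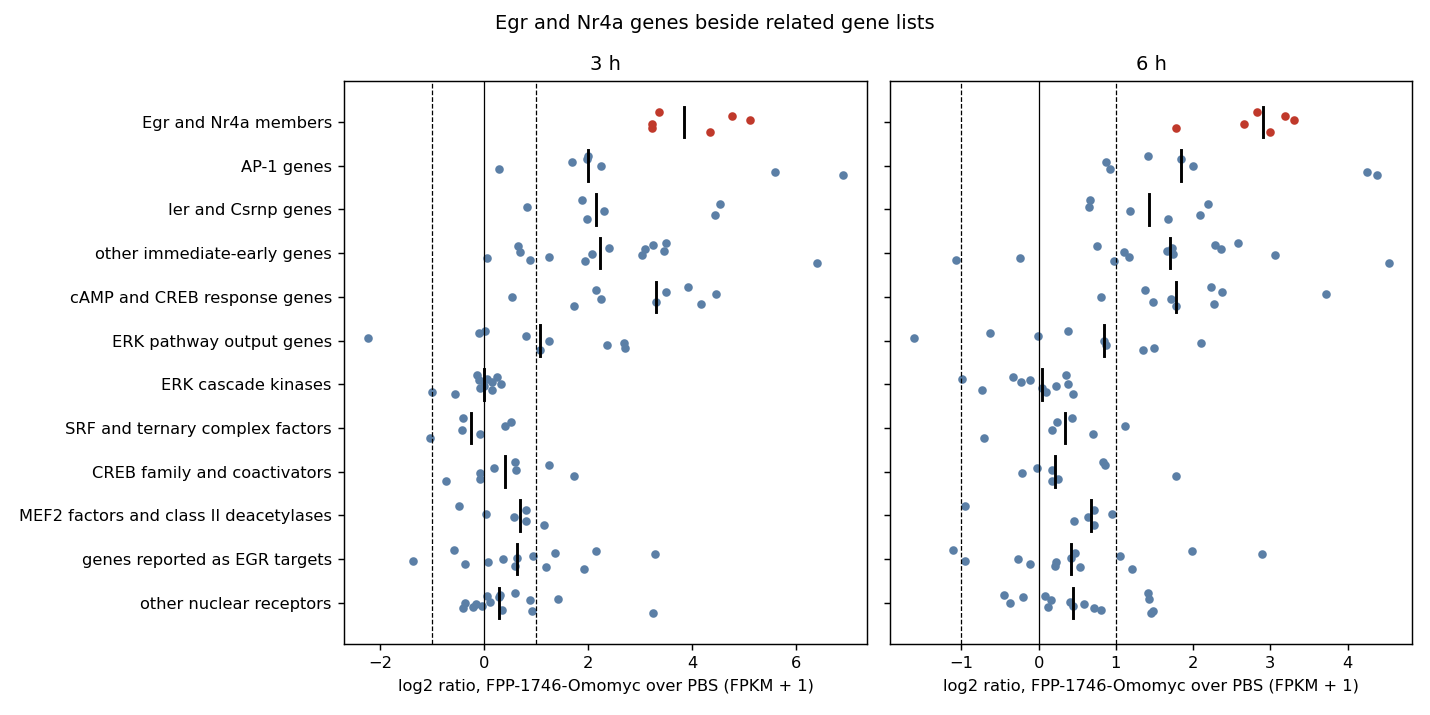
Log2 ratio of the fusion over PBS (FPKM + 1) at 3 h and 6 h for the 6 members (top row) and the tested genes of 11 related lists, 1 point per gene, with the list median as a black bar and 2-fold as dashed lines. The members (medians 3.85 and 2.91) lie to the right of the dashed line, and the ERK cascade kinases (-0.0053 and 0.040) lie around 0.

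The genes whose pattern was most like a member's were found by the smallest root mean square difference of the 6 log2 ratios over PBS (3 treatments at 2 times), among 9403 genes. For Egr1 they were the transcription factor gene Sox9 (0.24), the glutathione-degrading enzyme gene Chac1 (0.25) and the chemokine gene Cxcl1 (0.30). For Egr2 they were the choline kinase gene Chka (0.14), the mRNA decay factor gene Zfp36 (0.15) and Nr1d1 (0.20). For Egr3 they were the sphingomyelin synthase gene Sgms2 (0.19), Rsbn1 (0.25) and Ppp1r15a (0.25), which encodes the GADD34 phosphatase subunit. Chac1, Rgs2 and Cxcl1 were the nearest to both Nr4a1 (0.36, 0.38 and 0.38) and Nr4a2 (0.27, 0.30 and 0.28). Nearest to Nr4a3 were Ppp1r15a (0.17), Sgms2 (0.19) and the Kruppel-like factor gene Klf4 (0.19). Among the members, Egr3 and Nr4a3 were the closest pair (0.20), followed by Nr4a1 and Nr4a2 (0.25), and Egr2 and Nr4a1 were the farthest apart (1.03). This measure is dominated by the 2 fusion columns. It also depends on the 1 added to each FPKM, most of all for Nr4a3 and Egr2, which are low without the fusion. With 0.1 added, the fusion ratios over PBS at 3 h and 6 h were 6.00 and 5.96 for Nr4a3. Those of Egr3 were 3.75 and 3.52, so this pair was then far less alike. The nearest genes and pairs were not searched again with 0.1 added.

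The 8 columns summed to 445657 to 594951 FPKM, with the fusion at 3 h the highest. From the steps between low values, 1 FPKM on a transcript of 2000 bases was roughly 68.5 to 98.2 fragments. By that rough estimate the columns without the fusion rest on 0 to 34.5 fragments for Nr4a3, 20.1 to 141 for Egr2, 151 to 318 for Egr3, 273 to 480 for Egr1, 468 to 1147 for Nr4a2 and 716 to 1228 for Nr4a1. No member shares its locus with another row of the table. Of 4 neural markers 1 was tested, the tubulin gene Tubb3, which was 2-fold higher with the fusion at 6 h (2.68) and not at 3 h (0.09), the sum of the 4 lying between 7.45 and 51.1 FPKM over the columns. Its part in the members' values was not tested. In bulk RNA, more cells with a gene on and more RNA per cell cannot be told apart.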

How the data were processed

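RNA-seq was available for 24 samples in 8 groups. The deposited table holds FPKM, 1 column per group, which the authors averaged over 3 biological replicates, per the file headers and the labels. Tools named by the submitters' processing notes are STAR 2.1.3, bcl2fastq 2.17.1.14, Cuffnorm 2.2.1 and Cufflinks 2.2.1, with mm9 as the build. Order, settings and use of strand were not given in the sources used here, so reads from overlapping strands cannot be told apart.

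Members were matched by symbol. Log2 ratios used FPKM + 1. Genes whose mean was 1 FPKM or more were tested with a 2-fold rule, over 14 comparisons. The size rule was tested on simulated data. Changes were simulated only in genes with more FPKM in PBS at 3 h than Egr1, Egr2, Egr3 and Nr4a3. That test therefore does not cover genes as low as these 4 members. The genes named were the 6 members, the 3 genes most like each, their partners, and up to 4 genes per list with the largest ratios at either time. Thbs1 is named in addition, as the EGR target past the rule downward at 6 h. The members and lists were chosen with earlier results of these data known. Alternatives were other pseudocounts (0.1 and 5), folds (1.5 and 3), scalings and no small RNA records. Promoters are from RefSeq, GRCm38.p6, and table positions from mm9, with starts shifted to count from 1. Python 3.11.15, pandas 2.3.3 and numpy 2.4.6 were used.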

Additional observations from a re-analysis of the deposited data

How the results depend on the processing

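Of the counts of members past 2-fold under the alternatives, 82 were within 1.5 times the reported count and 8 were not. With pseudocount 0.1, 2 members were past 2-fold for Omomyc against PBS at 6 h (0 as reported), 1 for PBS at 6 h against 3 h, 2 for Omomyc and 1 for FPP-1746 at 6 h against 3 h. With a 1.5-fold rule these were 3 for Omomyc against PBS at 6 h, and 2 for Omomyc and 1 for FPP-1746 at 6 h against 3 h. With a 3-fold rule, 2 members were lower at 6 h than at 3 h with the fusion, against 5. Of the members' log2 ratios, 520 stayed on the same side of the size rule in use. A further 13 passed it only under an alternative, 7 of them at an unchanged ratio by the 1.5-fold rule. Another 7 no longer passed, 3 of them at an unchanged ratio by the 3-fold rule, and among them was Egr2 at 6 h with pseudocount 5 (0.63 against each of PBS, FPP-1746 and Omomyc). Of the ratios, 10 changed sign, 7 with the mean of both PBS columns as reference and 3 with another scaling, and all 10 were FPP-1746 or Omomyc against PBS, at most 0.094 in size as reported. Both other scalings moved the median of all genes by less than 0.1. With the PBS mean as reference, Omomyc was below PBS for Nr4a2 at 3 h (-0.08) and Egr2 at 6 h (-0.28).

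Over all tested genes, the fusion differed from PBS in 1083 genes at 3 h (629 higher, 454 lower), in 535 with pseudocount 5 (381 and 154), in 3104 by 1.5-fold and in 353 by 3-fold. At 6 h the counts were 1075, 517, 3351 and 303. Against FPP-1746 they were 1013, 516, 2935 and 345 at 3 h, and 1041, 514, 3267 and 294 at 6 h. Against Omomyc they were 957, 502, 2874 and 322 at 3 h, and 991, 485, 3288 and 262 at 6 h. For the fusion at 6 h against 3 h, 1251 genes passed 2-fold, 3900 passed 1.5-fold, 467 passed with pseudocount 5 and 230 passed 3-fold. Without small RNA records, the 63 and 57 genes for FPP-1746 against PBS (96 and 93 by 1.5-fold) were 3 and 5, the 63 and 70 for Omomyc (100 by 1.5-fold at 3 h) were 1 and 6, and the 89 for PBS at 6 h against 3 h were 35. For that last comparison 148 passed with pseudocount 0.1, 408 by 1.5-fold and 44 by 3-fold. For Omomyc at 6 h against 3 h, 141 passed, 252 with pseudocount 0.1, 83 with pseudocount 5, 699 by 1.5-fold, 55 by 3-fold and 91 without small RNA records. For FPP-1746 at 6 h against 3 h, 126 passed, 228 with pseudocount 0.1, 628 by 1.5-fold, 61 by 3-fold and 63 without small RNA records.

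No paired analysis was possible because each group is 1 averaged column, although the labels number the replicates, and for the same reason there is no fit without 1 replicate. Depth limits Nr4a3 and Egr2 in the columns without the fusion.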

Other observations

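Besides Egr3, Nr4a1 and Nr4a2, the genes at least 1.5-fold higher with Omomyc alone at 6 h, without small RNA records, included several receptor and signalling genes, named here after their values were seen. Ramp3, which encodes a receptor activity-modifying protein, was at 0.747 FPKM in PBS, 1.56 with FPP-1746, 2.85 with Omomyc and 51.6 with the fusion. Pde4b, a cyclic AMP phosphodiesterase gene, was at 3.83, 5.73, 7.04 and 14.8 FPKM in the same order. Cd14, for a lipopolysaccharide co-receptor, was at 12.9, 13.3, 24.5 and 118 FPKM. The clock gene Per2 was at 1.39, 1.75, 2.68 and 14.6 FPKM. Adamts1, a protease gene, was at 8.01, 12.3, 14.97 and 48.7 FPKM. Several others past the rule did not share this order. Acta2, the smooth muscle actin gene, was at 86.2 FPKM in PBS, 143 with FPP-1746 and 131 with Omomyc, and at 13.5 with the fusion. Msmp was at 1.57 FPKM in PBS, 2.00 with FPP-1746, 3.41 with Omomyc and 1.86 with the fusion. The squalene epoxidase gene Sqle was at 109 FPKM in PBS and at 162, 169 and 169 FPKM in the 3 peptide columns. These values have no replicate check.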
